A study of Clytia hemisphaerica and Astroides calycularis and Pocillopora acuta with 17 samples.

Results

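The cells described here carry the label general neural cells of the planula, the swimming larva, of the jellyfish Clytia hemisphaerica. The label is checked below and did not hold equally over all of these cells. They were chosen from single-cell RNA sequencing by 10 genes, called the rule genes below: a cell was a member when it held at least 1 unique molecular identifier (UMI, a tag that counts 1 captured RNA molecule) of at least 2 of them. Before the rule, barcodes were kept with 300 to 75000 UMIs, 200 to 5000 detected genes and at most 20% mitochondrial UMIs. Of 15372 kept cells among 19087 Clytia barcodes, 581 were members, 3.78% of kept cells with an exact Clopper-Pearson 95% interval from 3.48 to 4.09 that covers counting error only. The 10 genes had been taken from a cluster of these same cells, so the number of members, the levels of the rule genes and every comparison of members with other cells are a description without a test.

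The study examined larvae of 3 cnidarians, and only its Clytia cells were used here. Pooled whole planulae of the laboratory Z strain were dissociated at 52 hours post-fertilization (hpf) and at 66 hpf, each age being 1 dissociation split into 2 technical replicates, and the cells were fixed in ACME solution. A further matrix held 5 ACME captures, and another held cells labelled methanol. For these last samples the labels gave no age, so age and fixation cannot be told apart among the 4 biological samples, which are called 52 hpf, 66 hpf, ACME and methanol below. The labels gave no genetic change and no drug treatment for any of these samples. Cells came from pooled larvae, so single larvae could not be compared.

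Cnidarians have no brain. Their planulae carry scattered nerve cells, many of which make short peptides cut from larger precursors and released as signals. ELAV proteins bind RNA and mark neurons in many animals, and Synaptotagmin is the calcium sensor of vesicle release. RFamides, peptides that end in arginine and an amidated phenylalanine, are among the most widespread neuropeptides of cnidarian nerve nets. Among the rule genes, XLOC_019434 is pp5, the precursor of an RFamide. XLOC_038606 encodes a receptor of the class A family of G protein-coupled receptors (GPCRs), the large family that includes most receptors for peptides and amines. XLOC_044072 and XLOC_040584 were annotated with a signal peptide, the mark of a protein made for secretion or the membrane, and the remaining 6 were known only by identifier.

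The 6 Clytia matrices held 5398374 to 17628703 UMIs each, and members contributed 152398 to 557972 UMIs per matrix. Members made up 3.41% and 4.85% of kept cells in the 52 hpf replicates, 3.64% and 3.92% in the 66 hpf replicates, 4.37% in the ACME matrix and 2.53% in the methanol matrix. The mean over 4 biological samples was 3.70% ± 0.811 (SD, n = 4), and the methanol cells, which had the lowest median depth, were also lowest in members. Members were deeper than other cells, with a median of 2307 UMIs against 1326, which is 1.74 times as many. Because deeper cells meet the rule more easily, shares of cells with a gene are given below also after thinning each cell of at least 500 UMIs to 500, that is as the share of cells expected to keep a UMI in a draw of 500. The median mitochondrial share of a member's UMIs was 1.51 to 3.26% per matrix. No member barcode was shared between matrices, while 22 barcodes were shared among all kept cells over the 15 pairs of matrices.

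Members varied widely in how strongly they met the rule. A member held 2 to 1364 UMIs of the rule genes, with a median of 7, and 143 members (24.6%) held exactly 2. The members held 36057 of the 38631 rule-gene UMIs, or 93.3%. Among cells that were not members, 1669 had a UMI of 1 rule gene and 13122 had none. Summed over the 10 genes and expressed as counts per 1000000 UMIs (CPM), the rule genes reached 18702 CPM in members at 52 hpf, 13693 at 66 hpf, 25410 in ACME and 11129 in methanol, against 36.8 to 83.4 CPM in the other cells.

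The most abundant rule gene was XLOC_044072, at 5681 CPM in members at 52 hpf, 4808 at 66 hpf, 7215 in ACME and 3583 in methanol, against 4.33 to 18.6 CPM in other cells. It was found in 294 members. The RFamide precursor pp5 (XLOC_019434) was found in more members, 327, at 3029, 2796, 7451 and 2677 CPM in the same order. ACME members thus carried more pp5 than those of the other samples, which lay close together. The share of cells with a pp5 UMI was 56.3% in members, 2.43% in other cells and 4.17% in epidermis-like cells that were not members. Since cells that were not members could hold at most 1 rule gene, the last value is lowered by the rule, and over all epidermis-like cells the share was 7.85%. For XLOC_044072 the same shares were 50.6%, 2.36%, 4.36% and 7.59%.

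The other rule genes differed in how many members carried them. XLOC_040581 was found in 215 members, at 1739, 790.5, 2723 and 571 CPM, and XLOC_042330 in 175, at 2039, 1660, 2839 and 289 CPM. XLOC_013075 was found in 144 members, at 585, 887, 203 and 413 CPM, and XLOC_014690 in 117, at 956, 601, 289 and 308 CPM. Both were highest in the samples of known age and lower in ACME and methanol, as was the receptor gene XLOC_038606, found in 75 members at 548, 287, 88.4 and 203 CPM. A few genes had most of their UMIs in a few cells. MSTRG.6357 was found in 74 members at 1507, 675, 2885 and 643 CPM, and 10 members held 80.6% of its UMIs. XLOC_040584 was found in 103 members at 2194, 868, 1542 and 2441 CPM, with 72.3% in 10 members. XLOC_030188 was the rarest, with 38 members, 423, 319 and 175 CPM in the first 3 samples and 0 in methanol, and 10 members held 76.1% of its UMIs.

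**Figure D1:**
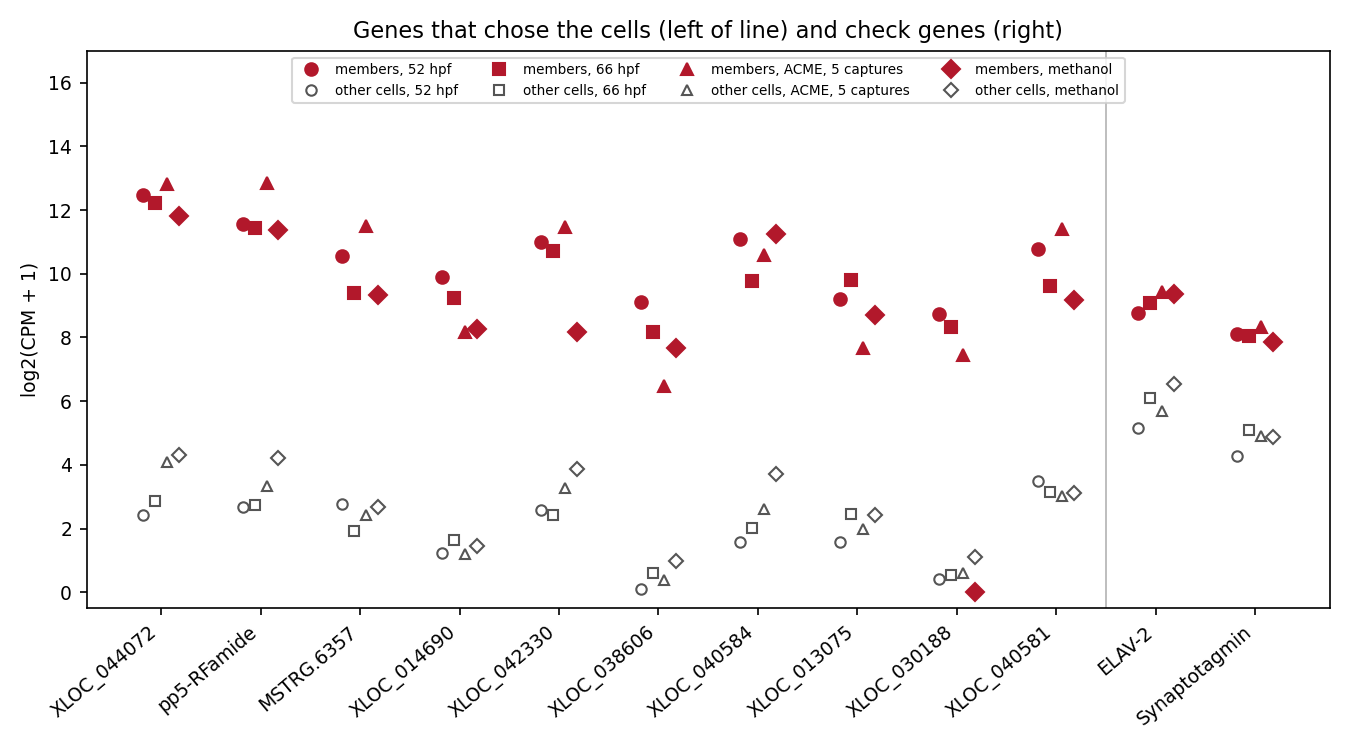
Level of the 10 rule genes and of the check genes ELAV-2 and Synaptotagmin, as log2(CPM + 1), in members (filled) and other kept cells (open) of 4 biological samples, marked by shape. Rule genes were set apart by the choice of cells; ELAV-2 lay at 432 to 691 CPM in members and 34.5 to 92.1 CPM in other cells.

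ELAV-2 (XLOC_030971) and Synaptotagmin (XLOC_000865) were not among the rule genes and were used to check the neural label. ELAV-2 stood at 432 CPM in members at 52 hpf, 541 at 66 hpf, 691 in ACME and 656 in methanol, a mean of 580 ± 117 (SD, n = 4). Other cells stood at 34.5 to 92.1 CPM, so the groups did not overlap, and the log2 ratio of the means was 3.23. Synaptotagmin stood at 275, 263, 321 and 230 CPM in members, a mean of 272 ± 37.6 (SD, n = 4), against 18.6 to 33.0 CPM in other cells, a log2 ratio of 3.27. Members held 3.61% of all UMIs of the kept cells but 27.2% of those of ELAV-2 and 27.1% of those of Synaptotagmin.

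ELAV-2 was seen in 305 members (52.5%), Synaptotagmin in 242 (41.7%), both in 194 and either in 353 (60.8%). After thinning to 500 UMIs, 26.0% ± 7.52 (SD, n = 4 samples) of members kept an ELAV-2 UMI against 3.72% ± 0.978 of other cells, and 16.5% ± 4.35 kept a Synaptotagmin UMI against 2.00% ± 0.773. In epidermis-like cells that were not members, which are not neural by their markers, 8.01% had an ELAV-2 UMI unthinned at a median of 1821.5 UMIs, and 2.90% had one of Synaptotagmin. In replication-rich cells that were not members the shares were 8.58% and 5.99% at a median of 7614 UMIs.

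The label did not hold equally over the range of the rule. Just outside the threshold, in cells with 1 rule gene, the share with ELAV-2 after thinning was 5.71%, and just inside it, in cells with 2, it was 22.0%. It was 3.68% in cells with no rule gene, 29.8% with 3 and 43.2% with 4. The 19 cells with 5 or more rule genes were at 26.2%, with the samples spread from none to 33.7%. Synaptotagmin followed the same order, at 2.02%, 3.50%, 12.4%, 20.6%, 27.0% and 17.3%. In CPM, ELAV-2 averaged 85.0 ± 18.6 (SD, n = 4) with 1 rule gene and 440 ± 64.0 with 2.

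The number of rule-gene UMIs separated the members further. Of members with exactly 2 such UMIs, 6.94% kept an ELAV-2 UMI after thinning, close to the 5.71% of cells with 1 rule gene, so for these 143 cells the neural label rested on the rule alone. The share was 10.8% in the 111 members with 3 or 4 rule UMIs, 30.05% in the 75 with 5 to 10, 48.6% in the 108 with 11 to 50 and 43.1% in the 144 with more than 50. Synaptotagmin gave 5.42%, 7.31%, 17.2%, 30.4% and 25.5%.

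Markers of other cell types moved along the same scale. The summed level of the 10 epidermis markers lay at 2478 to 11745 CPM over the 4 samples in members with exactly 2 rule UMIs, and at 396 to 2305 CPM in members with more than 50, while other cells had 959 to 6255 CPM. The summed level of the 7 mucous markers lay at 5949 to 7079 CPM in members with 2 rule UMIs and at 282 to 611 CPM in those with more than 50, against 693 to 2753 CPM in other cells. XLOC_044949, an aboral epidermis marker, lay at 17466 to 35582 CPM in the 254 members with 2 to 4 rule UMIs and at 2767 to 4379 CPM in the 252 members with more than 10, with other cells at 5376 to 9331 CPM. The part of cells of these other types, or of RNA from them, in the levels of all 581 members was not tested.

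In the 252 members with more than 10 rule UMIs, a cut made after the values were seen, ELAV-2 reached 641 CPM at 52 hpf, 995 at 66 hpf, 1483 in ACME and 2001 in methanol. Unthinned, 82.9% of them had an ELAV-2 UMI and 67.9% one of Synaptotagmin. In the 254 members with 2 to 4 rule UMIs the mean was 156 ± 57.5 CPM (SD, n = 4). The groups did not overlap, and the methanol sample, lowest in number of members, had the highest ELAV-2 level among its 16 members of more than 10 rule UMIs.

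**Figure D2:**
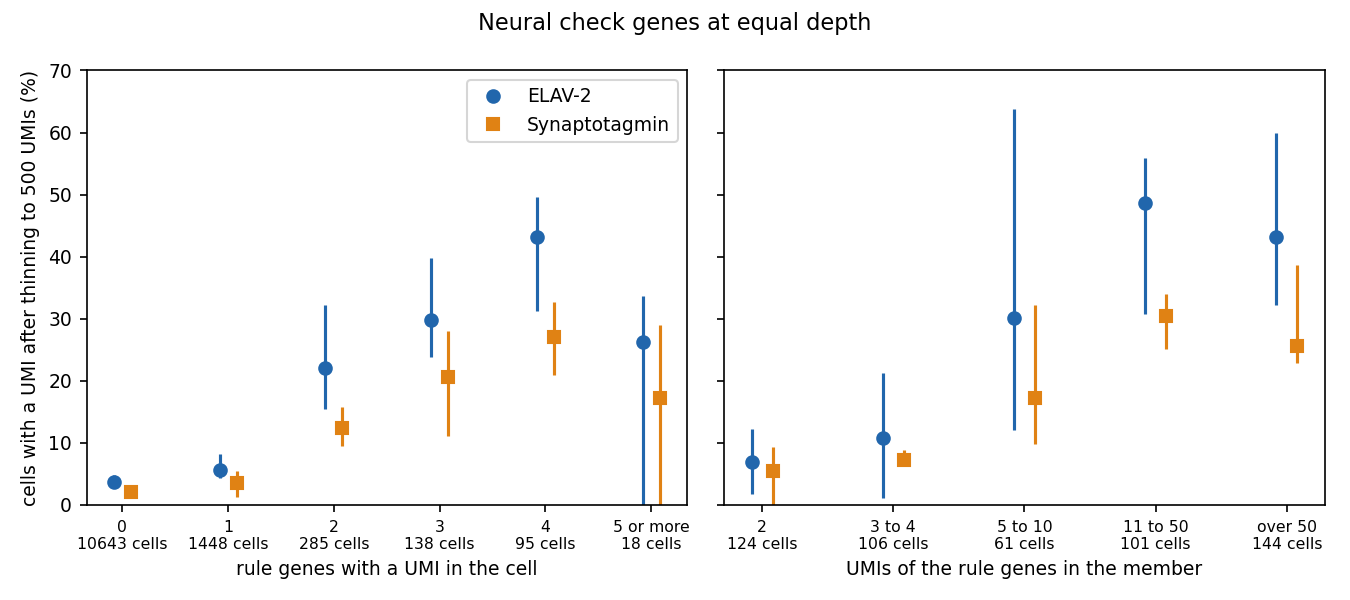
Share of cells (%) expected to hold a UMI of ELAV-2 or Synaptotagmin after thinning to 500 UMIs, by number of rule genes in a kept cell (left) and by rule-gene UMIs in a member (right); points pool all cells and lines span the 4 biological samples. The ELAV-2 share was 5.71% with 1 rule gene and 22.0% with 2, and 6.94% in members with exactly 2 rule UMIs against 43.1% with more than 50.

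The rule genes did not mark a single kind of cell. Among cells with more than 10 UMIs of a rule gene, a cut chosen after the values were seen, pp5 was in 93 cells, and 53 of these also had more than 10 UMIs of XLOC_042330, 47 of XLOC_040581 and 23 of MSTRG.6357. None of the 55 XLOC_042330 cells lacked another rule gene at that level. XLOC_014690 was in 44 cells and XLOC_013075 in 43, and 28 cells had both. The receptor gene XLOC_038606 was in 22 cells, 8 of them with XLOC_014690 and 13 with XLOC_044072. XLOC_044072, in 97 cells, was shared with pp5 in 46 cells but with XLOC_014690 and XLOC_013075 in 0. With so few cells above this cut, a count of 0 alone does not show that the genes exclude each other. XLOC_040584 and XLOC_030188 mostly stood alone: 20 of 23 cells of the former and 8 of 13 of the latter had no other rule gene above 10 UMIs.

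Counted with any UMI, sharing within these sets was again frequent, but the sets were less separate. XLOC_014690 occurred with XLOC_013075 in 73 cells and with XLOC_038606 in 62. The precursor pp5 occurred with XLOC_040581 in 149 cells and with XLOC_042330 in 129. MSTRG.6357 occurred with neither XLOC_038606 nor XLOC_013075 in any cell, and with XLOC_014690 in 2. Of all kept cells, MSTRG.6357 was found in 1.22%, XLOC_038606 in 0.625%, XLOC_013075 in 1.67% and XLOC_014690 in 1.22%. Genes this rare share few cells by chance alone, so these low counts do not show separate sets. XLOC_044072, however, occurred with XLOC_014690 in 29 cells and with XLOC_013075 in 46, and pp5 with XLOC_013075 in 45. Whatever the rule gene, most cells with more than 10 UMIs of it held ELAV-2, from 70.8% for MSTRG.6357 to 93.0% for XLOC_013075.

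**Figure D3:**
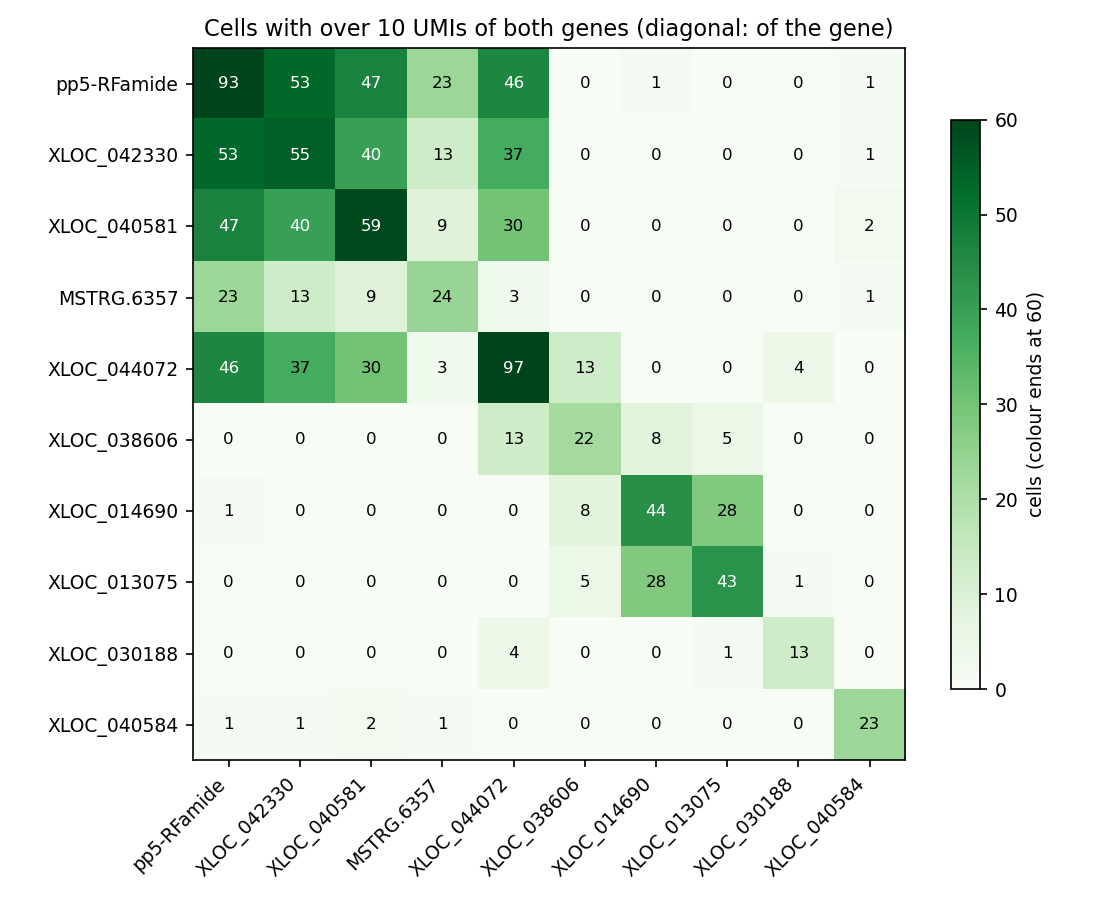
Number of cells with more than 10 UMIs of both rule genes of a row and a column, and on the diagonal of the gene itself. The 53 cells with pp5 and XLOC_042330 and the 28 with XLOC_014690 and XLOC_013075 lie in separate blocks, and XLOC_044072 shared 46 cells with pp5 and 0 with XLOC_014690.

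Members were therefore described in a pair of groups drawn from this sharing, after it had been seen. The XLOC_014690 group held cells with a UMI of at least 2 of XLOC_014690, XLOC_038606 and XLOC_013075. The pp5 group held cells with a UMI of at least 2 of pp5, MSTRG.6357, XLOC_042330 and XLOC_040581. They had 102 and 209 cells, with 1 further cell in both and 269 members in neither. The XLOC_014690 group made up 1.11% of kept cells at 52 hpf, 0.918% at 66 hpf, 0.340% in ACME and 0.250% in methanol. It was thus more frequent in the samples of known age than in the others. The pp5 group made up 1.37%, 1.12%, 1.93% and 0.928%, and was most frequent in ACME.

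Both groups carried the neural check genes. ELAV-2 stood at 469, 667, 1086 and 2001 CPM in the XLOC_014690 group and at 302, 627, 692 and 355 CPM in the pp5 group, in the order 52 hpf, 66 hpf, ACME and methanol. The groups overlapped, and the methanol value of the first came from 7 cells. Synaptotagmin stood at 428, 333, 477 and 534 CPM against 195, 413.5, 306 and 186 CPM. The groups differed in purity: 4 of 102 cells of the XLOC_014690 group had exactly 2 rule UMIs, against 29 of 209 of the pp5 group, and the median was 42.5 rule UMIs against 14. The 10 aboral epidermis markers summed to 662 to 21571 CPM in the XLOC_014690 group and 25607 to 84530 CPM in the pp5 group, with other cells at 14012 to 25265 CPM. Genes between the groups were therefore read also in members with more than 10 rule UMIs, 80 and 107 cells, where that sum was 578 to 8812 CPM against 8721 to 23904 CPM. The part of epidermal cells in the difference between the groups was not tested further.

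Of 4213 genes with at least 30 UMIs over both groups, 94 (2.23 percent) were at least 2-fold higher in the XLOC_014690 group in each of the 4 samples and 170 (4.04 percent) at least 2-fold higher in the pp5 group. In members with more than 10 rule UMIs the counts were 49 (1.9 percent) and 55 (2.14 percent) of 2575 genes, of which 43 and 32 were among the first 94 and 170. Over the samples of known age alone, 196 (6.99 percent) and 191 (6.81 percent) of 2804 genes were 2-fold apart in both. The rule genes that drew the groups were left out of these counts. Of the 10 rule genes only 3 were compared among the 4213, and of these only XLOC_040584 was called, higher in the pp5 group.

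In the XLOC_014690 group the leading genes outside the rule were XLOC_003280 and XLOC_044629, both without annotation. XLOC_003280 stood at 5622, 4551, 6173 and 3535 CPM, against 12.6 to 27.3 CPM in the pp5 group and 5.78 to 8.66 CPM in other cells. XLOC_044629 stood at 4395, 3247, 3444 and 3601 CPM, against 0 to 67.6 CPM. Levels of these genes in the XLOC_014690 group were thus alike in samples that differed in age or fixation. The class A GPCR gene XLOC_044200 stood at 148, 319, 159 and 267 CPM against 12.6 to 16.9 CPM. The actin-bundling protein gene XLOC_042082 (fascin) stood at 1169, 667, 821 and 534 CPM against 145 to 220 CPM in the pp5 group and 42.9 to 114 CPM in other cells. FoxQ2a (XLOC_014597), a forkhead transcription factor gene known from the aboral or apical territory of many larvae, stood at 337.5, 705, 159 and 200 CPM against 31.5 to 67.6 CPM in the pp5 group, where it was near the 22.9 to 49.0 CPM of other cells. These 5 genes were at least 2-fold higher in each sample also among members with more than 10 rule UMIs. In the study's comparison of bisected larvae, XLOC_044200, the rule gene XLOC_038606, and XLOC_033061 and XLOC_004785 below are in the oral list. The receptor genes XLOC_041592 and XLOC_033219 of the pp5 group are in the aboral list. The position of either group in the larva was not tested.

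Others were at least 2-fold higher in all members of the XLOC_014690 group but not in each sample among those with more than 10 rule UMIs. XLOC_033061, which encodes ankyrin repeats, a fold that binds other proteins, stood at 2741, 2604, 2729 and 2201 CPM against 37.7 to 473 CPM. XLOC_004785, with an RNA recognition motif, stood at 823, 580, 318 and 333.5 CPM against 6.29 to 50.7 CPM. The precursor of the peptide IPYFAN (XLOC_012580) stood at 173, 556, 2199 and 1267 CPM against 37.7 to 237 CPM.

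Receptor genes were among those higher in the pp5 group. Of 2 GPCR genes, XLOC_041592 stood at 478, 636, 487 and 270 CPM, from 348 UMIs in 65 cells, and no UMI was found in the XLOC_014690 group. Set against the 3 counts that a count of 0 over the group allows, it was at least 65-fold higher. XLOC_033219 stood at 220, 400, 428 and 287 CPM, again with no UMI in the XLOC_014690 group, and was at least 45.4-fold higher. XLOC_000870, without annotation, stood at 314.5, 727, 357 and 118 CPM against 0, at least 56.7-fold higher. XLOC_035579, also without annotation, stood at 5598, 2731, 8053 and 321 CPM against 0, 0, 0 and 66.7 CPM. These 4 genes were again at least 2-fold higher in each sample among members with more than 10 rule UMIs.

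The lipase gene XLOC_019492 stood at 717, 945, 776 and 625 CPM in the pp5 group and 0 to 66.7 CPM in the XLOC_014690 group, but other cells were at 385 to 1362 CPM. It is an example of a gene that was low in the XLOC_014690 group rather than raised in the pp5 group, and it was not 2-fold apart in each sample among members with more than 10 rule UMIs.

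**Figure D4:**
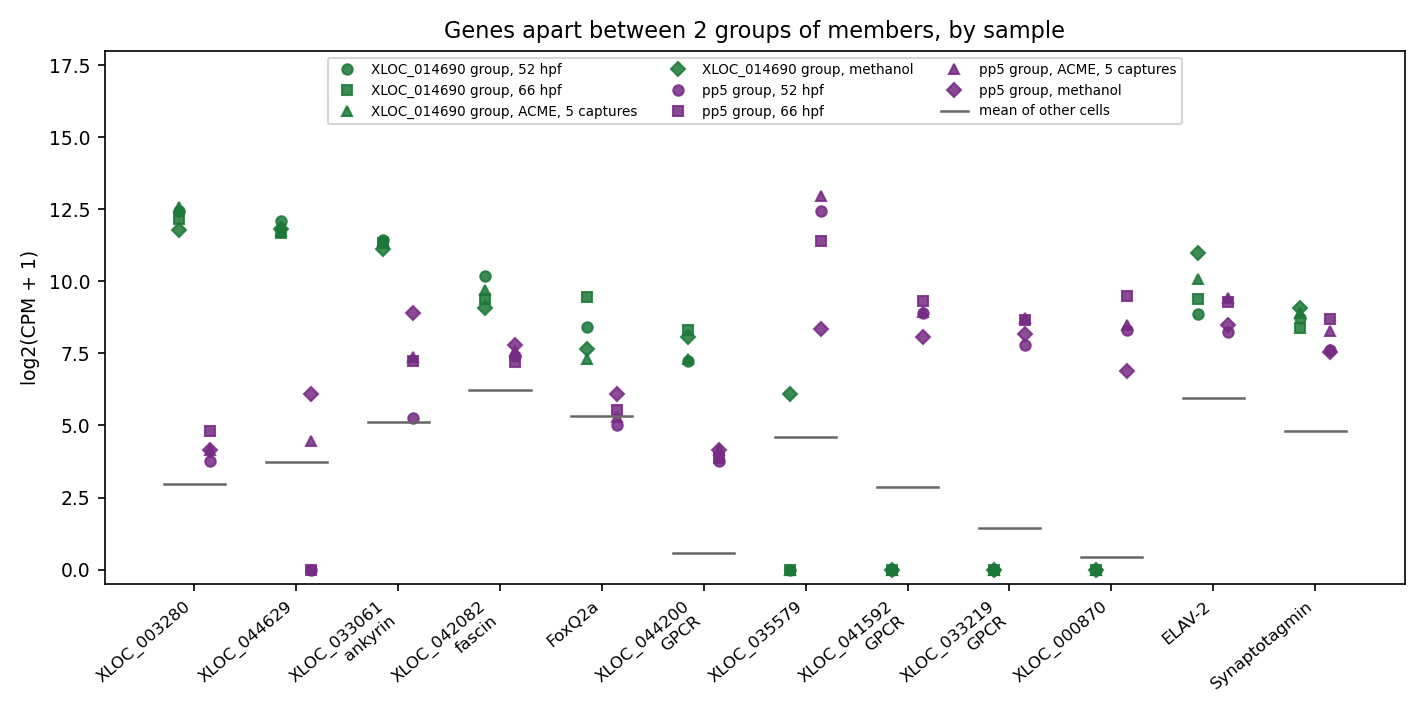
Level of genes in the XLOC_014690 group (green) and the pp5 group (purple) as log2(CPM + 1), by biological sample (shapes), with the mean of other cells as a line. XLOC_041592, XLOC_033219 and XLOC_000870 lie at 0 in every sample of the XLOC_014690 group, XLOC_003280 lies at 3535 CPM or more there, and ELAV-2 overlaps between the groups.

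A pair of small sets of cells stood out by a gene of the rule, each chosen after the values were seen and lying mostly, but not wholly, outside these groups. More than 10 UMIs of XLOC_040584 were found in 23 cells, 5 at 52 hpf, 11 at 66 hpf, 5 in ACME and 2 in methanol, of which 22 were members. All but 1 of the 23 also held XLOC_003691, whose protein carries a domain of PBAN-type neuropeptides (pheromone biosynthesis activating peptides, known from insects), with 809 UMIs in all and up to 134 in a cell. Pooled, XLOC_003691 stood at 15716 CPM in these cells, from 9644 to 31925 CPM over the 4 samples. ELAV-2 was found in 82.6% of them and Synaptotagmin in 43.5%. The precursor of HFRIamide, another amidated peptide, was found in 13 of them with 54 UMIs. It lay at 0 to 1463 CPM over the samples, which overlapped the 128 to 922 CPM of cells that were not members.

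More than 10 UMIs of XLOC_030188 were found in 13 cells, 4 at 52 hpf, 7 at 66 hpf, 2 in ACME and 0 in methanol. All 13 held XLOC_030186, annotated as a short secreted protein, with 245 UMIs and 5609 to 6655 CPM in the 3 samples with such cells. XLOC_030186 stands in the marker list of the Nk2d cells, an aboral neural type, yet XLOC_043740 of the same list had 0 UMIs in the 13 cells. ELAV-2 was found in 92.3% of them and Synaptotagmin in 76.9%.

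Over all genes, 10192 had at least 10 UMIs in members. Of these, 718 (7.04 percent) were at least 2-fold higher in members than in other cells in each of the 4 samples, and 77 (0.755 percent) were at most 0.5-fold in each. The median log2 ratio was 0.154. With edgeR's TMM scaling of the sums that median fell by 0.216 on the log2 scale to −0.06, and the calls became 552 higher and 218 lower, so that 71.7% of called genes were higher in place of 90.3%. Of the 10 rule genes, 9 were called, XLOC_030188 being at 0 in methanol, which is what the choice of cells made and says nothing further.

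Outside the rule, the annotated genes with the highest ratios were headed by those of the groups: XLOC_004785 at 259.5, 164, 64.5 and 78.7 CPM in members with a log2 ratio to other cells of 6.60, the GPCR genes XLOC_033219 at 5.51, XLOC_044200 at 5.13 and XLOC_041592 at 4.76, and XLOC_033061 at 4.27. XLOC_003691 had a log2 ratio of 4.92 and lay at 838, 357, 352 and 289 CPM, with 66.4% of its UMIs in 10 members. Further GPCR genes were XLOC_036505, at 25.0, 18.9, 95.8 and 91.9 CPM with a log2 ratio of 4.36, and XLOC_030512, at 9.10, 68.7, 18.4 and 111.5 CPM with 3.80. XLOC_045412, which encodes a CRAL/TRIO domain, a pocket for small lipids, had a log2 ratio of 4.22. XLOC_021209 had 4.60, from only 15 members. Without annotation, XLOC_003280 had 6.82 and XLOC_000870 6.62. The lowest ratio was that of XLOC_031581, at 2.28, 13.3, 5.53 and 6.56 CPM in members and 50.8, 67.4, 177 and 156 CPM in other cells, followed by MSTRG.10776. None of the 77 lower genes was among the 636 genes annotated from the study's marker tables.

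By kind of protein, receptor and channel genes were the most often higher. These genes were annotated by the study among markers and aboral or oral genes chosen on these or matched larvae, so the counts lean towards genes of particular cell types. Of 19 class A GPCR genes with at least 10 UMIs in members, 11 were called higher, with a median log2 ratio of 2.36, beside 7.04 percent called and a median of 0.154 over all genes. Of 5 class C GPCR genes 3 were higher, and of 4 class B genes 1 was, XLOC_001206, at 45.5, 95.3, 84.7 and 98.4 CPM in members. Of 21 ion channel genes 12 were higher, with a median log2 ratio of 2.39. Among them MSTRG.12243 lay at 63.7, 99.8, 127 and 98.4 CPM in members, a log2 ratio of 3.14. All 3 genes of glutamate-receptor-type channels, which open on glutamate or related ligands, were higher: MSTRG.6055 with a log2 ratio of 2.90, XLOC_004799 with 2.55 and XLOC_034271 with 1.65. Of 3 Cys-loop channel genes, the family of receptors for acetylcholine, GABA and glycine, only MSTRG.15099 was higher, at 1.88. None of 3 transmitter transporters, 3 amiloride-sensitive sodium channels and 4 Wnt ligands was called in either direction. The single genes named in this paragraph were taken after their values were seen.

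Of 12 genes with a transcription factor domain 1 was higher, a share near the 7.04 percent called higher over all genes. It was the bHLH gene MSTRG.17658, of the family that includes the proneural factors of other animals. It lay at 70.6, 39.9, 90.3 and 65.6 CPM in members against 4.35 to 7.11 CPM in other cells. FoxQ2a was not called over all members, at 182, 234, 81.0 and 91.9 CPM against 22.9 to 49.0 CPM, since the ACME sample lay under 2-fold. The C2-domain gene XLOC_029295, of the calcium- and lipid-binding fold also found in Synaptotagmin, had a log2 ratio of 2.58. It was the only one of 3 called, too few genes to set against the 7.04 percent over all genes.

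None of the 5 mucous genes with enough UMIs and none of the 10 epidermis genes was called higher, with median log2 ratios of 1.06 and 0.84, and none of 10 replication-rich genes, with a median of −1.02, beside 7.04 percent called higher over all genes. The summed replication-rich level was 1640 to 5759 CPM in members and 4742 to 10785 CPM in other cells. As sums, however, the mucous and epidermis lists were higher in members in each of the 4 samples. The mucous sum was 3608 to 6280 CPM in members against 693 to 2753 CPM in other cells, and the epidermis sum 1828 to 8996 against 959 to 6255 CPM. Of 10 aboral epidermis genes 4 were higher: XLOC_044949, at 22667, 14371, 23440 and 30374 CPM, XLOC_030785, XLOC_006232 and MSTRG.21572. Of 9 genes of transmitter signalling, a list that includes the GABA vesicle transporter and a GABRB1-like channel, none was called, with a median log2 ratio of 1.12.

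The lists that mark the other neural types are read against the 7.04 percent called higher over all genes. In the list of the Nk2d cells 3 of 6 were higher, XLOC_007968 with a log2 ratio of 2.94, XLOC_030186 with 2.50 and XLOC_004388 with 1.85. In the QYFamide list 2 of 21 were higher, in the HFRIamide list 1 of 13, in the neurosecretory list 1 of 17 and in the GLWamide list none of 12, shares near or below that of all genes. Those single genes were the receptor XLOC_041592 for HFRIamide and the glutamate-receptor-type channel XLOC_034271 for the neurosecretory list.

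Members overlapped with the other neural classes when each class was drawn by its own list. Of the 581 members, 191 (32.9%) also met a GLWamide, QYFamide, HFRIamide, Nk2d or neurosecretory list, against 1598 (10.8%) of other cells. These lists were applied without thinning, and the part of the greater depth of members in this overlap was not tested. The neurosecretory list accounted for 147 members (25.3%), HFRIamide for 44 (7.57%), QYFamide for 34 (5.85%), and GLWamide and Nk2d for 24 each (4.13%). Of the 14791 other cells, 1006 met the neurosecretory list, 210 HFRIamide, 249 QYFamide, 192 GLWamide and 161 Nk2d. The epidermis list was met by 216 members (37.2%) and the replication-rich list by 166 (28.6%). Over all kept cells, members included, the shares were 22.3% and 24.4%, so the replication-rich share of members lay near that of all cells. Of 1521 kept cells with an ELAV-2 UMI, 305 were members and a further 446 fell in the GLWamide, QYFamide, HFRIamide or Nk2d classes.

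Taken over all 581, members were intermediate among the neural classes in ELAV-2. With members left out of each class, ELAV-2 averaged 1582 ± 690 CPM (SD, n = 4) in the QYFamide class, 848 ± 881 in the Nk2d class, 578 ± 249 in the GLWamide class, 130 ± 47.2 in the HFRIamide class, 54.3 ± 10.97 in the neurosecretory class, 44.9 ± 24.8 in the epidermis class and 26.5 ± 17.1 in the replication-rich class. The 580 ± 117 CPM of members did not differ from the GLWamide and Nk2d values beyond their spread. That mean pools unlike cells: members with 2 to 4 rule UMIs averaged 156 ± 57.5 CPM and those with more than 10 averaged 1280 ± 592 CPM. The place of members among the classes thus depends on how strictly the rule is read.

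Neuropeptide precursors were compared over the same classes. Of 7 with enough UMIs, the rule gene pp5 was the only one called higher in members, which the choice of cells fixed. In other classes without members pp5 averaged 6.30 ± 4.61 CPM in QYFamide, 10.5 ± 16.2 in GLWamide, 11.5 ± 16.1 in HFRIamide and 90.3 ± 152 CPM in Nk2d cells, while in the pp5 group it lay at 7957, 11020, 16345 and 6135 CPM by sample and in the XLOC_014690 group at 26.5 to 91.8 CPM. These levels were fixed by how the groups and classes were drawn, as were those of the precursors pp2, pp9 and HFRIamide in the classes whose lists hold them. The precursor pp2-GLWamide averaged 192 ± 152 CPM in members against 32270 ± 20346 in the GLWamide class. The precursor pp9-QYFamide averaged 120 ± 112 CPM against 3703 ± 2095 in the QYFamide class, and HFRIamide 1175 ± 884 CPM against 17402 ± 8818 in its class, while all other cells averaged 310 CPM of pp2-GLWamide, 57.4 of pp9-QYFamide and 480 of HFRIamide. HFRIamide was thus higher in members than in other cells in 3 of 4 samples, and the IPYFAN precursor (XLOC_012580), at 75.1, 174, 346 and 381 CPM against 43.7, 126, 29.2 and 42.5, in all 4, but neither was 2-fold apart in each. With at least 3 rule genes asked for, the log2 ratio of HFRIamide turned from 1.29 to −2.38. For pp11-GLWamide members held 2 UMIs in all. A single cell could carry such a value: 261 of the 315 pp2-GLWamide UMIs of the XLOC_014690 group over all samples came from 1 cell.

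**Figure D5:**
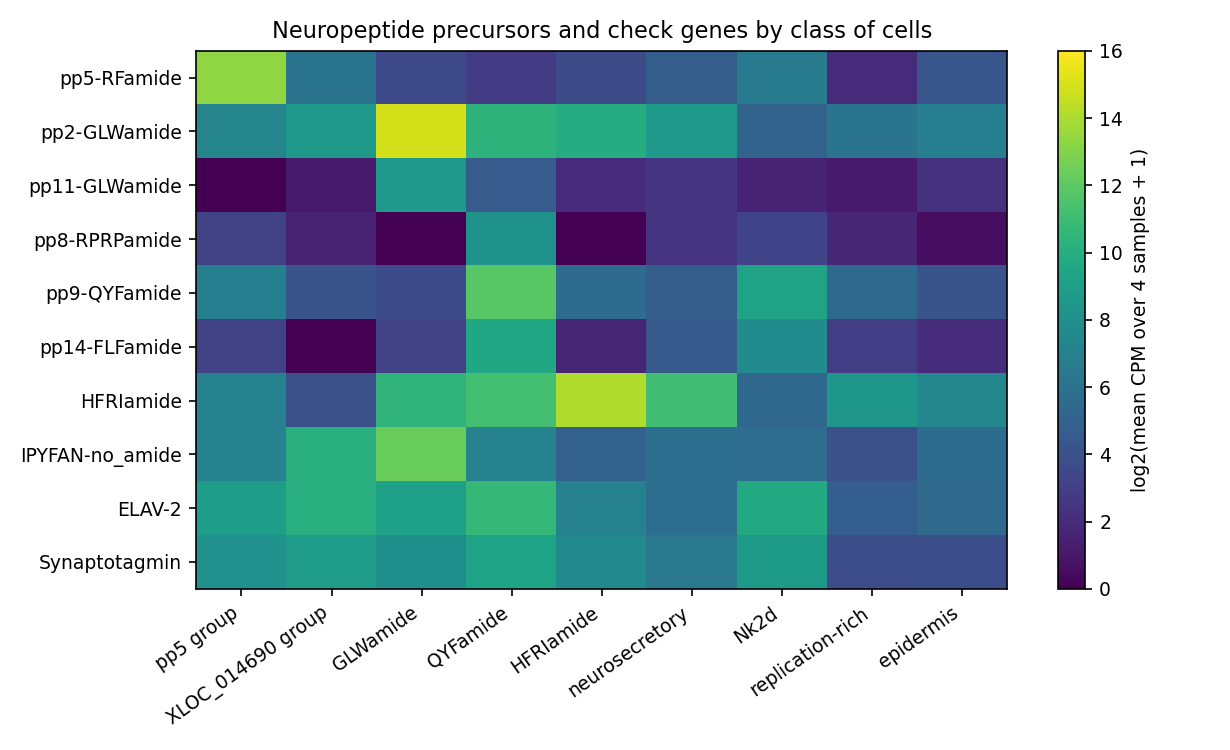
Level of neuropeptide precursors and of the check genes, as log2(mean CPM over 4 samples + 1), in the pp5 and XLOC_014690 groups and in classes drawn from other marker lists with members left out. High pp5 is seen in the pp5 group, while pp2-GLWamide is highest in the GLWamide class and pp9-QYFamide in the QYFamide class.

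Over 9 classes of cells, the genes whose mean level ranked most like that of pp5 outside the rule were XLOC_039267, XLOC_036819 and XLOC_001080, each with a Spearman correlation of 0.93, and XLOC_016385 and XLOC_019292, each with 0.92. These are descriptions over 9 points that share libraries. Members were 1 of the 9 classes and pp5 is a rule gene, so the choice of cells fixed its top rank in members. A high rank correlation therefore does not show that a gene marks pp5 cells. XLOC_039267 lay at 104 CPM in members and at 0.526 to 3.96 CPM elsewhere. The other 4 genes were not set apart in this way. XLOC_036819 lay at 38.2 CPM in members and 35.2 CPM in the neurosecretory class. XLOC_019292, with 11 UMIs in members, was lower in members, at 4.58 CPM, than in the Nk2d class. XLOC_001080 and XLOC_016385 had 15 and 27 UMIs in members.

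Genes of the aboral end, the pole opposite the future mouth, were taken from the study's comparison of bisected larvae. They took 6.85%, 6.99%, 10.3% and 7.95% of member UMIs at 52 hpf, 66 hpf, ACME and methanol, against 3.09%, 3.67%, 2.95% and 2.68% in other cells, so the groups did not overlap. Without the rule genes, of which XLOC_044072 and XLOC_038606 are in the oral list and MSTRG.6357 and XLOC_040584 in the aboral list, oral genes took 1.45%, 1.01%, 1.65% and 1.38% of member UMIs against 1.32%, 3.40%, 1.76% and 0.888%, and the groups overlapped. Aboral genes without the rule genes still took 6.48 to 9.86% of member UMIs against 2.68 to 3.67%. Without both the rule genes and the 10 most abundant aboral genes the aboral share was 2.43 to 3.72% in members and 1.07 to 1.19% in other cells. Of 335 aboral genes 106 were called higher in members, with a median log2 ratio of 1.31, and of 87 oral genes 8 were, with a median of 0.38. Over all genes 7.04 percent were called higher, near the oral share, and both counts hold the rule genes of each list. The pp5 group had 5.72 to 10.6% aboral UMIs and the XLOC_014690 group 1.53 to 5.02%. Several aboral epidermis markers, XLOC_044949 among them, are in the aboral list, and they lay higher in the pp5 group as given above. In members with more than 10 rule UMIs the 10 markers summed to 7391 to 11774 CPM, below the 14012 to 25265 CPM of other cells. Their part in the aboral share was not tested.

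The ages were compared as 1 biological sample each, so the values describe these samples. Of 8338 genes with at least 10 UMIs in members of both ages, 341 (4.09 percent) were at least 2-fold higher at 66 hpf in every pairing of technical replicates and 107 (1.28 percent) at least 2-fold higher at 52 hpf. In other cells the counts were 895 (5.90 percent) and 50 (0.330 percent) of 15167 genes. At a minimum of 30 UMIs the counts were 135 (3.01 percent) and 30 (0.668 percent) of 4489 in members. In other cells they were 641 (4.92 percent) and 24 (0.184 percent) of 13018. No rule gene was among those called in members, nor were ELAV-2, at 378 and 481 CPM in the 52 hpf replicates and 326 and 890 at 66 hpf, or Synaptotagmin.

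Some list genes were higher in 66 hpf members, each from few cells. The taurine dioxygenase-domain gene TauDb (XLOC_041385) lay at 0 and 4.29 CPM in the 52 hpf replicates and at 41.2 and 40.7 CPM at 66 hpf, whereas in other cells it lay at 14.95 and 8.70 CPM and at 4.18 and 5.50 CPM, the opposite order. The 66 hpf values came from 5 and 4 members. The gene PF1_3 (XLOC_041127), of a family of short secreted proteins, lay at 111 and 120 CPM against 473 and 392.5 CPM, with other cells at 190 and 129 against 238 and 247 CPM, and came from 5 and 7 members at 52 hpf and 17 and 7 at 66 hpf. BGT-1 (XLOC_030751), a transporter gene of the betaine and GABA type, had 0 UMIs at 52 hpf and 13 at 66 hpf, from 4 members of the first replicate and 1 of the other. The precursor pp2-GLWamide also met the 2-fold rule, at 72.6 and 98.8 CPM against 543 and 201 CPM, but 261 of its 303 UMIs in the first 66 hpf replicate came from 1 cell, and other cells lay at 401 and 463 against 364 and 352 CPM. XLOC_021209 went the other way, at 29.1 and 34.4 CPM against 3.58 and 8.72 CPM, from 2 members of each replicate. The difference of these ages between members and other cells was not tested.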

How the data were processed

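The authors deposited raw UMI counts per gene and cell barcode, made with STARsolo (version not given in the sources used here), 10x 3′ chemistry, cell calling by EmptyDrops and a minimum of 300 UMIs. Matrices (18761 features) were read as deposited. Members, lists and gene annotations were chosen with earlier results of these data known. UMIs were summed over members and over other cells in each of 4 biological samples (technical replicates summed) and expressed as CPM. Depth per matrix is given above, and exact intervals cover counting error only. A gene was called when, with at least 10 UMIs in members (30 for the groups), it was 2-fold apart in each sample; log2 ratios used a pseudocount of 1 CPM. No significance test was run, since the rule used these cells. Other classes needed UMIs in at least 3 genes of the GLWamide, QYFamide, HFRIamide or neurosecretory list, 2 of 6 for Nk2d, or 5 of 10 for replication-rich and epidermis. No doublet caller was run; members over 10000 UMIs were left out as an alternative, beside other rules, depths, filters, scalings and libraries left out. Named genes were the listed genes, the 10 annotated genes with the largest ratio and at least 50 UMIs, up to 5 annotated lower genes (none was found), the 2 highest and 2 lowest without annotation, and 5 most like pp5; others are said to be chosen later. The calling script was checked on simulated counts. Python 3.11.15, numpy 2.4.6, scipy 1.17.1, matplotlib 3.10.9, R 4.3.3 and edgeR 4.0.16 (TMM only) were used.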

Additional observations from a re-analysis of the deposited data

Results flagged for a closer look

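Of 65 values examined over the 4 biological samples, 5 had a sample far from the others, where chance gives about 1 in 20. The pp5 precursor, a rule gene whose level depends on the choice of cells, stood at 7451 CPM in ACME members. The other samples were at 2677 to 3029 CPM. The PBAN-domain gene XLOC_003691 stood at 838 CPM in 52 hpf members, with the others at 289 to 357 CPM. BGT-1 (XLOC_030751) stood at 0 CPM in 52 hpf members, with the others at 12.9 to 14.4 CPM. Those levels came from only 8 and 5 UMIs in the 66 hpf replicates, 7 in ACME and 2 in methanol. The neurosecretory list summed to 7620 CPM in 66 hpf members, with the others at 3018 to 3259 CPM. The list of transmitter signalling genes summed to 208 CPM in ACME members, with the others at 105 to 121 CPM.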

How the results depend on the processing

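No paired test was run, because no result came from a test. Members and other cells, and the groups of members, were compared within each biological sample. The numbers of the replicates mark technical splits of separate samples and give no pairs between samples. No named gene that was called reversed in direction. The median log2 ratio over all genes went from 0.154 to −0.06 with TMM scaling, and the log2 ratio of HFRIamide, not called, from 1.29 to −2.38 with at least 3 rule genes, −1.83 with cells thinned before the rule and −2.20 with at least 5 rule UMIs. With at least 3 rule genes asked for, members made up 1.68% of kept cells (262 cells), ELAV-2 stood at 780 CPM and Synaptotagmin at 410.0 CPM with a thinned share of 22.1%, and 136 genes were lower. With cells thinned to 500 UMIs before the rule, members made up 2.06% (270 cells), ELAV-2 stood at 1131 CPM (38.2% of cells) and Synaptotagmin at 564 CPM (25.9%), and 362 genes were higher and 21 lower. With at least 5 rule UMIs asked for, an alternative chosen after seeing the data, members made up 2.08% (327 cells), ELAV-2 stood at 1020 CPM (41.2%) and Synaptotagmin at 449 CPM (25.0%), and 126 genes were lower. Without cells over 10000 UMIs, ELAV-2 stood at 745 CPM and Synaptotagmin at 355 CPM. Without members of another neural list they stood at 862 and 369 CPM, the latter with a thinned share of 21.1%. Thinned to 1000 UMIs the shares were 34.7% and 24.2%. The genes lower in members numbered 33 with a minimum of 30 UMIs, 264 with 1 UMI and 218 with TMM scaling. The cause of these shifts was not tested.

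Leaving out 1 library at a time gave 639 to 1236 higher and 68 to 109 lower genes, both highest counts without the methanol matrix, 3.47 to 4.08% members (388 to 533 cells), ELAV-2 at 526 to 667 CPM (23.0 to 28.6%) and Synaptotagmin at 256 to 293 CPM (15.7 to 17.7%). Leaving out 1 biological sample gave 106 to 142 genes higher in the XLOC_014690 group, most without methanol, and 144 to 299 in the pp5 group, most without 66 hpf. The groups and ages were set after seeing the data, as were their alternatives. The pp5 group had 325 higher genes at a minimum of 10 UMIs. At 100 UMIs the groups had 42 and 72, and with more than 10 rule UMIs 49 and 55. The age counts were 135 and 30 at 30 UMIs and 43 and 8 at 100. For 46 named genes, 633 of 690 values moved by less than 1 SD and 57 by more. Depth limits what single cells show, since a member with few UMIs can miss ELAV-2 by sampling alone.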
